A study of Homo sapiens with 90 samples.

Results

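The comparison described here set HepG2 cells exposed for 24 h to 10 µM imazalil against cells that received the DMSO vehicle alone, at the level of single genes. It rested on 6 arrays, 3 per group, of the 84 different arrays (90 deposited columns) of the series. Each of the 19774 genes measured was represented by 1 probe set, the one listed with a single gene symbol that had the highest mean over all 90 columns, and none was left out for a low value. HepG2 is an established human liver tumour line, supplied by the ATCC according to the labels. Per the labels, both groups carried 0.2% DMSO, and the series also held imazalil at 8 lower doses, the triazole fungicide fenbuconazole and the chlorophenoxy herbicide 2,4-D, with the same 3 DMSO arrays as common controls. Each sample's description carries a P code equal to its replicate number, the meaning of which is not stated. Nothing in the labels says whether the 3 arrays of a group came from separate cultures, so the spread between them may be technical. The p-values against DMSO use this within-group spread pooled over all 30 columns of imazalil and its DMSO, not over the 6 arrays alone. Those between compounds pool it over the 54 treated columns of 2 compounds.

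Imazalil is an imidazole fungicide that blocks fungal sterol demethylase, a cytochrome P450, and azoles of this kind also bind mammalian P450 enzymes and several ligand-activated receptors of the liver. Among those receptors the aryl hydrocarbon receptor (AHR) switches on CYP1A1 when a ligand binds, while the pregnane X receptor (PXR) and the constitutive androstane receptor (CAR) control genes of drug oxidation, conjugation and export. Hepatocytes express these receptors to handle foreign compounds, and tumour lines such as HepG2 keep only part of that machinery.

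The 6 arrays were alike in overall signal. Their medians lay between 3.26 and 3.32 (log2 probe set intensity), the interquartile ranges between 3.59 and 3.75 in DMSO and between 3.69 and 3.74 with imazalil, and arrays of 1 group correlated at 0.996 or more across genes. The difference between 3' and 5' control probe sets of ACTB, a sign of RNA quality, was 0.33 to 0.56 in DMSO and 0.40 to 0.54 with imazalil. Of 10 hepatocyte markers 9 were measured, with DMSO means between 10.1 and 13.1, and none of them passed the threshold at 10 µM. The 8 mesenchymal markers had a median DMSO level of 2.81, with ACTA2 the highest at 8.06, and the 8 blood and endothelial markers measured stayed between 2.57 and 3.64. In a bulk sample, fewer cells of a type and less RNA per cell cannot be told apart.

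At 10 µM, 21 genes differed from DMSO at an adjusted p under 0.05 in limma, which was 0.106% of the genes tested. Of these, 10 rose (0.0506%) and 11 fell (0.0556%). CYP1A1, the P450 that is the standard readout of AHR activity, rose 8.08-fold, and MCC, a gene named for its mutations in colorectal cancer, rose 2.06-fold from a DMSO level near that of markers of absent cell types. Every other called gene moved by less than these. The genes that rose also included CYP24A1, HAMP, ALAS1, SULT2A1 and SOS1. Among those that fell were TXNIP, DKK1, SLC2A3, BNIP3L, SGK1, CCN2 and CLDN1. In all 21 genes the 3 imazalil arrays lay wholly above or wholly below the 3 DMSO arrays, a property that 12.7% of all genes (2514) shared. An unadjusted p under 0.05 was met by 1180 genes (5.97%).

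**Figure D1:**
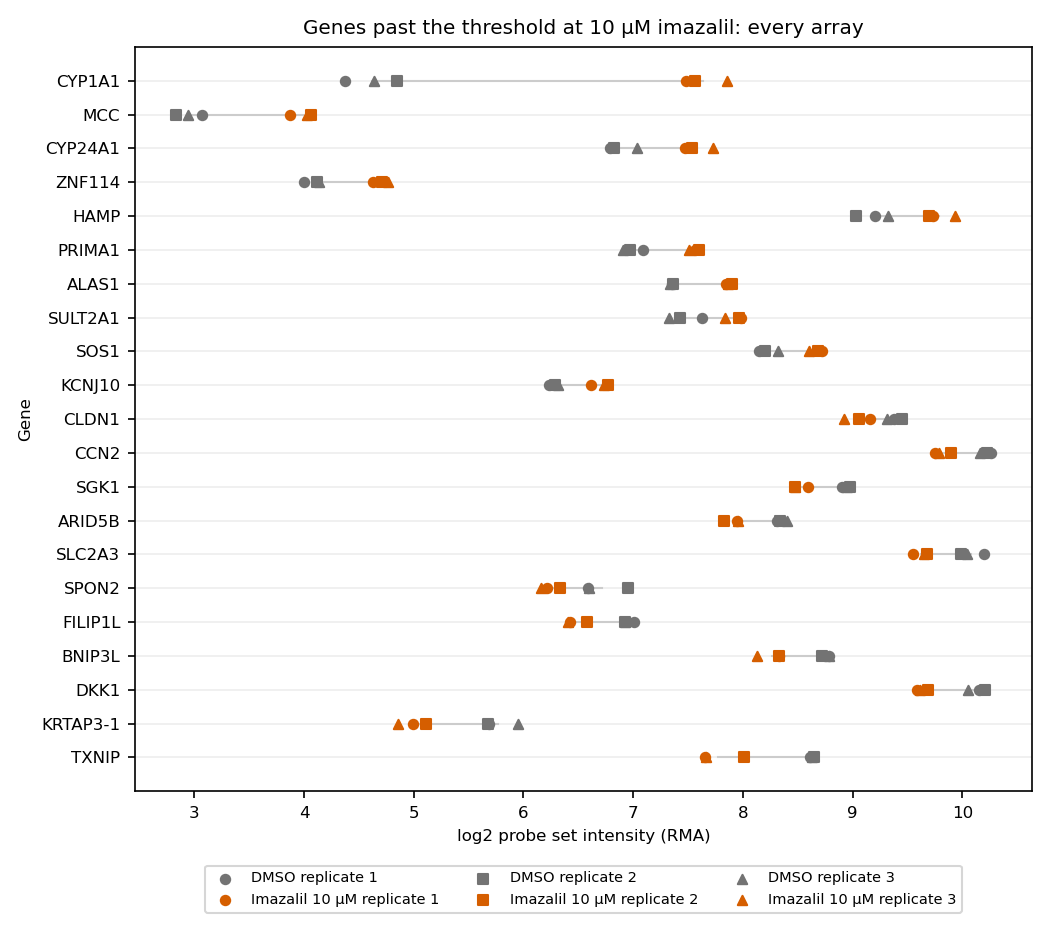
Values of the 21 genes past the threshold on each of the 6 arrays (x axis, log2 probe set intensity; grey, DMSO; orange, 10 µM imazalil; 1 marker shape per replicate number; the line joins the group means). CYP1A1 moved from 4.37 to 4.85 in DMSO up to 7.48 to 7.86, whereas most other genes were displaced by less than 1 log2 unit, and in no gene did the colours overlap.

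The regulatory sequence before CYP1A1 and CCN2 is shown as an illustration. Both were picked because they had a measured change and held the motif of the factor that each gene is best known to answer to. Their display is therefore no test, and a link between motif and change was not tested. For CYP1A1 the capitals mark GCGTG, the core of the AHR response element, and for CCN2 they mark GGAATG, the core bound by TEAD factors. Both strands were searched. The sequences are the 250 bases before the gene start in RefSeq (GRCh38.p14, minus strand in both cases), at chr15:74725529-74725778 and chr6:131951373-131951622.
CYP1A1: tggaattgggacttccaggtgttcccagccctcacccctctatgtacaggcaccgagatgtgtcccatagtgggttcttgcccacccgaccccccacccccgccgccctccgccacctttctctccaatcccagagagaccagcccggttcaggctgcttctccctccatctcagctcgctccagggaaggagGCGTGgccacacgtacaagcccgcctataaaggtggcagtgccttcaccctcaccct
CCN2: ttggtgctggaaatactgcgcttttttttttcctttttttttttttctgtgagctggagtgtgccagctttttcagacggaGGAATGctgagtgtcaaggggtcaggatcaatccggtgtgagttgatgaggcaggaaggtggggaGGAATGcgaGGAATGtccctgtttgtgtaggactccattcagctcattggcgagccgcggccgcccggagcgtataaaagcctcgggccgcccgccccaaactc
The CYP1A1 window held 1 copy of GCGTG, at position -57 from the gene start, and the CCN2 window held 3 copies of GGAATG, at positions -169, -104 and -95. Of the 21 genes, 17 had a promoter window of 300 bases (250 before to 50 after the start) in the RefSeq table, and some had several. GCGTG was present in a window of 5 of the 8 genes that rose and 5 of the 9 that fell, against 50.8% of 15397 measured genes with a window and 36.5% of all 35116 windows. GGAATG was present for 4 of the 9 genes that fell (CCN2, DKK1, FILIP1L and KRTAP3-1) and 0 of the 8 that rose, against 15.6% of measured genes and 14% of windows. AGGTCA, a core sequence of nuclear receptor sites, was found for 2 genes that fell and 0 that rose (15.1% of measured genes, 13.8% of windows), and CACGTG, an E box, for none of the 17 (10.9% of measured genes, 7.26% of windows). A match of letters is no evidence of binding, and a lack of a match speaks for this window alone.

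CYP1A1 read 4.37, 4.85 and 4.63 on the DMSO arrays and 7.48, 7.56 and 7.86 on the 10 µM imazalil arrays (log2 intensity, replicates 1 to 3). Every imazalil array was far above every DMSO array. The difference was 3.01 on the log2 scale (SE 0.21), an 8.08-fold rise with a 95% interval from 5.99 to 10.9 (limma, adjusted p = 2.07e-09). No other AHR target passed the threshold. TIPARP, which feeds back on the receptor, was higher by 0.15 (adjusted p = 0.876), and NQO1, a quinone reductase that also answers to NRF2, by 0.10 (adjusted p = 0.876). CYP1A2, a sister enzyme with a DMSO mean of 3.75, was higher by 0.19 (adjusted p = 0.893). The receptor's repressor AHRR and CYP1B1 were within 0.02 of DMSO, and their DMSO means of 2.63 and 2.80 were low signals on this array. Of 11 AHR targets measured, 8 were above DMSO and 1 was called, with a median log2 change of 0.08. Over all genes, 9610 of 19774 were above DMSO and the median was -0.004.

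CYP24A1, the mitochondrial P450 that inactivates the vitamin D hormone, read 6.79, 6.83 and 7.04 in DMSO and 7.47, 7.53 and 7.73 with imazalil. It rose by 0.69 (SE 0.11, 1.62-fold, adjusted p = 0.00277). No other gene among the 9 measured of vitamin D metabolism and response was past the threshold, the receptor VDR was at 2.85 in DMSO and changed by -0.02, and the list's median was 0.02.

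Genes of the PXR and CAR lists gave 2 calls, both upward. ALAS1, the rate-limiting enzyme of haem synthesis, read 7.36, 7.36 and 7.33 in DMSO and 7.85, 7.90 and 7.86 with imazalil, a rise of 0.52 (SE 0.09, 1.43-fold, adjusted p = 0.00784). SULT2A1, which sulfates bile acids and steroids, read 7.63, 7.43 and 7.32 against 7.98, 7.96 and 7.84, a rise of 0.47 (SE 0.09, 1.38-fold, adjusted p = 0.0256). The ALAS1 values were tight within each group, while those of SULT2A1 were more spread in DMSO, with replicate 1 nearest to the imazalil arrays. A further 4 members were above DMSO at an unadjusted p under 0.05 without passing the threshold. These were the glutathione transferase GSTA1 (0.60, adjusted p = 0.101), the foetal P450 CYP3A7 (0.39, adjusted p = 0.755), and the exporters ABCB1 (0.30, adjusted p = 0.758) and ABCC2 (0.25, adjusted p = 0.738). In all, 11 of 14 members lay above DMSO and the median was 0.16, the highest of the 30 lists, but 0.06 against the 3 lowest imazalil doses, where other lists stood higher (NRF2 targets 0.09). The other groups set against these DMSO arrays gave like tallies, with 12 of 14 above DMSO at 1 µM imazalil, 13 with 10 µM fenbuconazole and 12 with 10 µM 2,4-D. CYP3A4 and CYP2B6, the classical targets of PXR and of CAR, had DMSO means of 3.56 and 2.70 and differed by -0.09 and -0.01, signals at which a change may not be detectable, and the files hold no detection calls. Elsewhere in haem metabolism ALAD was higher by 0.24 (adjusted p = 0.761) and HMOX1, which breaks haem down, by 0.02.

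HAMP encodes hepcidin, the liver hormone that limits iron export. It read 9.20, 9.03 and 9.32 in DMSO and 9.73, 9.70 and 9.93 with imazalil, a rise of 0.60 (SE 0.10, 1.52-fold, adjusted p = 0.00479). The spread among the arrays of a group was smaller than the gap between the groups. Hepcidin transcription is driven by BMP signalling, and of 15 TGF-beta and BMP targets 11 were above DMSO with a median of 0.07. Only HAMP was called among them, ID2 and ID1 being higher by 0.20 (adjusted p = 0.769) and 0.11 (adjusted p = 0.830). Against copies of the same DMSO arrays, 10 of the 15 were above DMSO with 10 µM fenbuconazole (median 0.02). The count was also 10 with 10 µM 2,4-D (median 0.03). At 1 and 3 µM imazalil 7 and 6 were above. Whether BMP signalling changed was not tested.

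MCC read 3.07, 2.83 and 2.95 in DMSO and 3.87, 4.07 and 4.03 with imazalil, a rise of 1.04 in the measured signal (SE 0.13, adjusted p = 0.000134). The DMSO values lay among those of the blood and endothelial markers (2.57 to 3.64) and were not shown to be above background, so the measured fold may understate the change. With the mean of all its probe sets the rise was 0.70. MCC was the only called gene with a DMSO mean below 4, a region that held 50.5% of all genes, and a further probe set of the gene gave 0.36 (adjusted p over all probe sets = 0.551). SOS1, the exchange factor that loads RAS with GTP, read 8.15, 8.20 and 8.32 against 8.72, 8.68 and 8.61, a rise of 0.45 (SE 0.07, adjusted p = 0.00277). Its 4 further probe sets were all above DMSO, by 0.11 to 0.46, and none of them passed. ZNF114, a zinc finger protein, rose by 0.62 (SE 0.11, adjusted p = 0.00947) from between 4.00 and 4.13 to between 4.63 and 4.76, and its further probe set gave 0.66. PRIMA1, which anchors acetylcholinesterase in membranes, rose by 0.57 (SE 0.10, adjusted p = 0.00495) from between 6.91 and 7.09 to between 7.51 and 7.60. KCNJ10, an inward-rectifier potassium channel, rose by 0.43 (SE 0.09, adjusted p = 0.0385) from between 6.23 and 6.32 to between 6.62 and 6.77.

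TXNIP, which binds thioredoxin and restrains glucose uptake, had the largest fall. It read 8.61, 8.65 and 8.63 in DMSO and 7.65, 8.01 and 7.66 with imazalil, a log2 change of -0.85 (SE 0.09, adjusted p = 1.19e-05), to 0.554 times the DMSO level (95% interval 0.486 to 0.631). The DMSO arrays were nearly identical, and imazalil replicate 2 stood above the others of its group. Its other probe sets gave -0.96 and -0.92 and also passed when all probe sets were tested. TXNIP and its relative ARRDC4 are both induced by the glucose-sensing factors MondoA and ChREBP. ARRDC4 was lower by 0.65 on the log2 scale, with no overlap of the groups, but did not pass (adjusted p = 0.0988). It was already 0.29 below DMSO at 0.001 µM. Against the 3 lowest imazalil doses it was lower by 0.40 (limma, adjusted p = 0.293). The other 8 measured members of that list lay between -0.09 and 0.19, and the list's median was -0.01. SLC2A3, the glucose transporter GLUT3, read 10.20, 9.98 and 10.04 against 9.55, 9.68 and 9.65, a change of -0.45 (SE 0.08, adjusted p = 0.00832). A further SLC2A3 probe set passed at -0.43 and another, at -0.25, did not, and probe sets of this gene can share signal with its near-identical copy SLC2A14. The liver transporter SLC2A2 and the ubiquitous SLC2A1 differed by -0.29 (adjusted p = 0.771) and -0.17 (adjusted p = 0.849).

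BNIP3L, a mitophagy receptor that hypoxia induces, read 8.79, 8.72 and 8.79 in DMSO and 8.33, 8.33 and 8.13 with imazalil. It fell by 0.50 (SE 0.10, adjusted p = 0.0256), and its further probe set gave -0.28. Of 19 genes of hypoxia and glycolysis 14 were below DMSO with a median of -0.09, the lowest of the 30 lists, but BNIP3L alone was called. Only 5 were above DMSO at 10 µM, and the low tally was not particular to this dose. Against the same DMSO arrays, 3 of the 19 were above at 1 µM imazalil and 5 at 3 µM. The median was -0.04 at each of these doses, and no member was called there. Against the 3 lowest imazalil doses the median at 10 µM was -0.09. The collagen prolyl hydroxylase P4HA1 differed by -0.23 (adjusted p = 0.775).

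DKK1, a secreted inhibitor of Wnt receptors that Wnt signalling itself induces, had the smallest p among the genes that fell after TXNIP. It read 10.16, 10.21 and 10.05 in DMSO and 9.59, 9.69 and 9.61 with imazalil, a change of -0.51 (SE 0.06, adjusted p = 8.23e-05). The gap between the groups was wider than the spread within either. Of 17 genes of the Wnt list 12 were below DMSO, and the median was -0.07 against DMSO and -0.01 against the 3 lowest imazalil doses. The feedback inhibitor NKD1 and the stem cell receptor LGR5 differed by -0.30 (adjusted p = 0.494) and -0.22 (adjusted p = 0.738), CCND1 by 0.29 in the other direction (adjusted p = 0.738), and none of these passed.

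CCN2, a matricellular growth factor and the best-known target of YAP with TEAD, read 10.26, 10.22 and 10.16 in DMSO and 9.75, 9.90 and 9.79 with imazalil. It fell by 0.40 (SE 0.08, adjusted p = 0.0256). Its relative CCN1 was lower by 0.35 (adjusted p = 0.794) and the kinase gene LATS2 by 0.20 (adjusted p = 0.745). The CCN1 mean was 7.47 in DMSO, 7.19 at 0.001 µM imazalil, 7.36 at 3 µM and 7.13 at 10 µM. Of 22 YAP and TEAD targets 15 were below DMSO, with a median of -0.07 (-0.04 against the 3 lowest doses). The number above DMSO was 7 at 10 µM imazalil and also 7 at 1 µM, where the median was -0.03. At 3 µM 12 of the same 22 were above DMSO, with a median of 0.02. Set against copies of these DMSO arrays, 8 were above with 10 µM fenbuconazole (median -0.04). With the chlorophenoxy herbicide at 10 µM the number was 9 (median -0.01).

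SGK1, a kinase induced by serum and glucocorticoids, read 8.90, 8.98 and 8.95 against 8.60, 8.47 and 8.47, a fall of 0.43 (SE 0.06, adjusted p = 0.000394). The glucocorticoid target KLF9 was lower by 0.50 (adjusted p = 0.152), while FKBP5, another such target, differed by -0.05. Of 13 glucocorticoid receptor targets 7 were below DMSO and the median was -0.04. ARID5B, a DNA-binding regulator of fat and liver genes, read 8.31, 8.34 and 8.40 against 7.95, 7.83 and 7.95, a fall of 0.44 (SE 0.06, adjusted p = 0.000942). Its 4 further probe sets had DMSO means of 3.43 or less and did not pass.

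CLDN1, a tight junction claudin, read 9.37, 9.45 and 9.32 against 9.16, 9.05 and 8.92, a change of -0.33 (SE 0.06, adjusted p = 0.0160), the smallest of the 21. The remaining 13 measured tight junction genes did not pass, and 8 of the 14 were above DMSO. SPON2, a secreted matrix protein, fell by 0.48 (SE 0.09, adjusted p = 0.0118), with DMSO replicate 2 at 6.95 apart from 6.59 and 6.60. FILIP1L, a filamin-interacting protein, fell by 0.48 (SE 0.09, adjusted p = 0.0219), and its further expressed probe set gave -0.53. KRTAP3-1, annotated as a hair keratin-associated protein, fell by 0.78 (SE 0.13, adjusted p = 0.00479) from between 5.68 and 5.95 to between 4.86 and 5.12.

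The next 15 genes by p did not pass. Closest were SERPINA7, the thyroxine carrier of plasma (-0.31, adjusted p = 0.0519), and SLC51B, a bile acid exporter subunit that FXR induces (0.77, adjusted p = 0.0519). They were followed by CYB5A, the electron donor of P450 enzymes (0.32), FMO5, a flavin monooxygenase (-0.34), ARRDC4, and the NADP-linked dehydrogenase IDH1 (0.28), with adjusted p-values between 0.0826 and 0.0988. The other 9 were GSTA1, SLC17A5, IGFBP7, SND1-IT1, FOXQ1, SLC25A30, KLF9, APOM and TUBB2B, with adjusted p-values from 0.101 to 0.186.

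Azole fungicides are known for blocking sterol synthesis, and the genes of that pathway were near the DMSO level at 10 µM imazalil. Of 20 genes of cholesterol synthesis and uptake 15 were above DMSO, 0 were called and the median was 0.06. CYP51A1, the sterol demethylase that azoles bind, differed by 0.04 (SE 0.09) and HMGCS1 by 0.04 (SE 0.10), while MSMO1, an enzyme downstream of CYP51A1, was higher by 0.22 (adjusted p = 0.829). At 10 µM fenbuconazole, against copies of the same DMSO arrays, 19 of these 20 genes were above DMSO with a median of 0.25. The NRF2 list had 12 of 15 members above DMSO, a median of 0.10 and 4 members at an unadjusted p under 0.05, led by TXNRD1 (0.19, adjusted p = 0.647), and 0 calls. With 10 µM fenbuconazole 14 of the 15 were above DMSO (median 0.08) and with 10 µM 2,4-D 10 (median 0.02). At 1 and 3 µM imazalil 7 and 9 were above. PCK1, which opens gluconeogenesis, was higher by 0.63 from a DMSO mean of 3.26 (adjusted p = 0.228). Its mean was 3.77 at 0.001 µM imazalil, between 3.11 and 3.33 from 0.003 to 3 µM, and 3.89 at 10 µM.

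**Figure D2:**
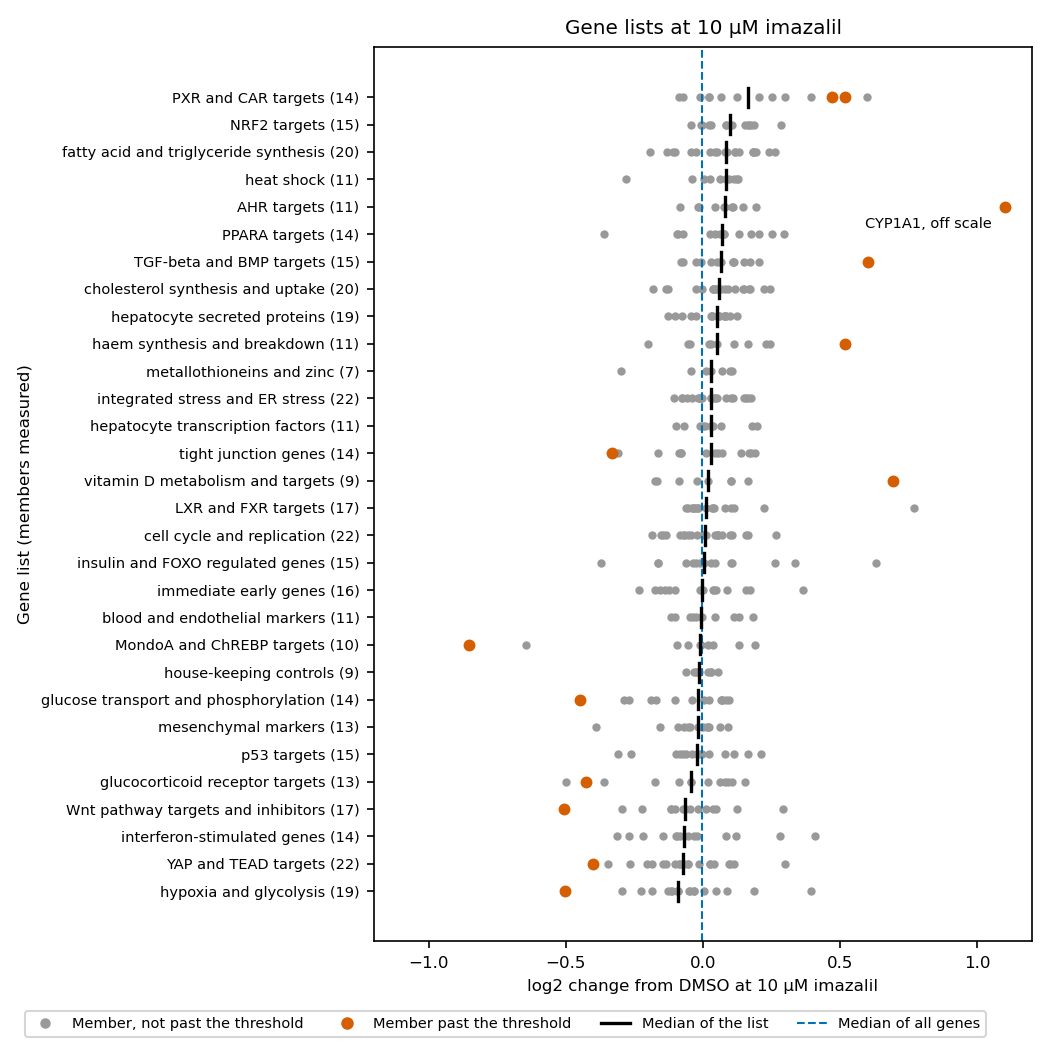
Members of the 30 gene lists at 10 µM imazalil (x axis, log2 change from DMSO; grey, not past the threshold; orange, past it; black bar, median of the list; dashed line, median of all genes). The medians ran from -0.09 for hypoxia and glycolysis to 0.16 for PXR and CAR targets, and called members stood mostly alone at the edge of their list; CYP1A1, at 3.01, lies beyond the axis.

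Several further processes showed no call, with medians between -0.07 and 0.08 against -0.004 over all genes. The 22 genes of the cell cycle had a median of 0.01, the 22 of integrated and ER stress 0.03, the 15 p53 targets -0.02 with CDKN1A at -0.005, the 19 secreted hepatocyte proteins 0.05, and the 9 house-keeping controls -0.02. The 11 heat shock genes had a median of 0.08 and the 14 interferon-stimulated genes -0.07. Of the 20 genes of fatty acid and triglyceride synthesis 14 were above DMSO (median 0.08), led by DGAT1 at 0.24 (adjusted p = 0.647). PDK4, a target of PPARA, had a DMSO mean of 2.71 and differed by 0.05.

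The dose course gave the level of the called genes below 10 µM. At 3 µM CYP1A1 was the only called gene (1 gene, 0.00506% of those tested), and no gene was called at any of the 7 doses below it. CYP1A1 read 6.55, 6.22 and 6.85 at 3 µM, 1.93 above DMSO (SE 0.21, adjusted p = 2.94e-05), and 5.74, 5.58 and 5.99 at 1 µM, 1.15 above DMSO (adjusted p = 0.196). It was higher by 0.50 at 0.3 µM and by 0.40 at 0.1 µM, and between -0.06 and 0.29 at the 4 lowest doses. The 3 µM change was thus 63.9% of that at 10 µM.

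The other called genes fell into a wide range of such shares, read here as a description because none but CYP1A1 passed at 3 µM. MCC read 2.84, 2.92 and 3.31 at 3 µM and is given no share, since these values and those of DMSO were not shown to be above background. ZNF114 had 7.60%, TXNIP 14.1%, HAMP 17.1% and ARID5B 19.6%. TXNIP read 8.45, 8.48 and 8.60 at 3 µM, close to DMSO, before the drop to between 7.65 and 8.01. At the other end SPON2 had 68.3%, SOS1 59.3%, PRIMA1 56.9%, FILIP1L 52.7% and KCNJ10 51.4%. Such shares do not give the dose at which a gene began to move, since some of the lowest doses showed like shifts without a call. PRIMA1 was 0.27 above DMSO at 0.003 µM and 0.33 at 3 µM. ZNF114 was 0.24 above DMSO at 0.001 µM and 0.05 at 3 µM. DKK1 read 9.92, 9.99 and 9.94 at 3 µM, below all 3 DMSO arrays, with 37.4%. All 21 genes were on the same side of DMSO at 3 µM as at 10 µM, but both doses were set against the same DMSO arrays.

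**Figure D3:**
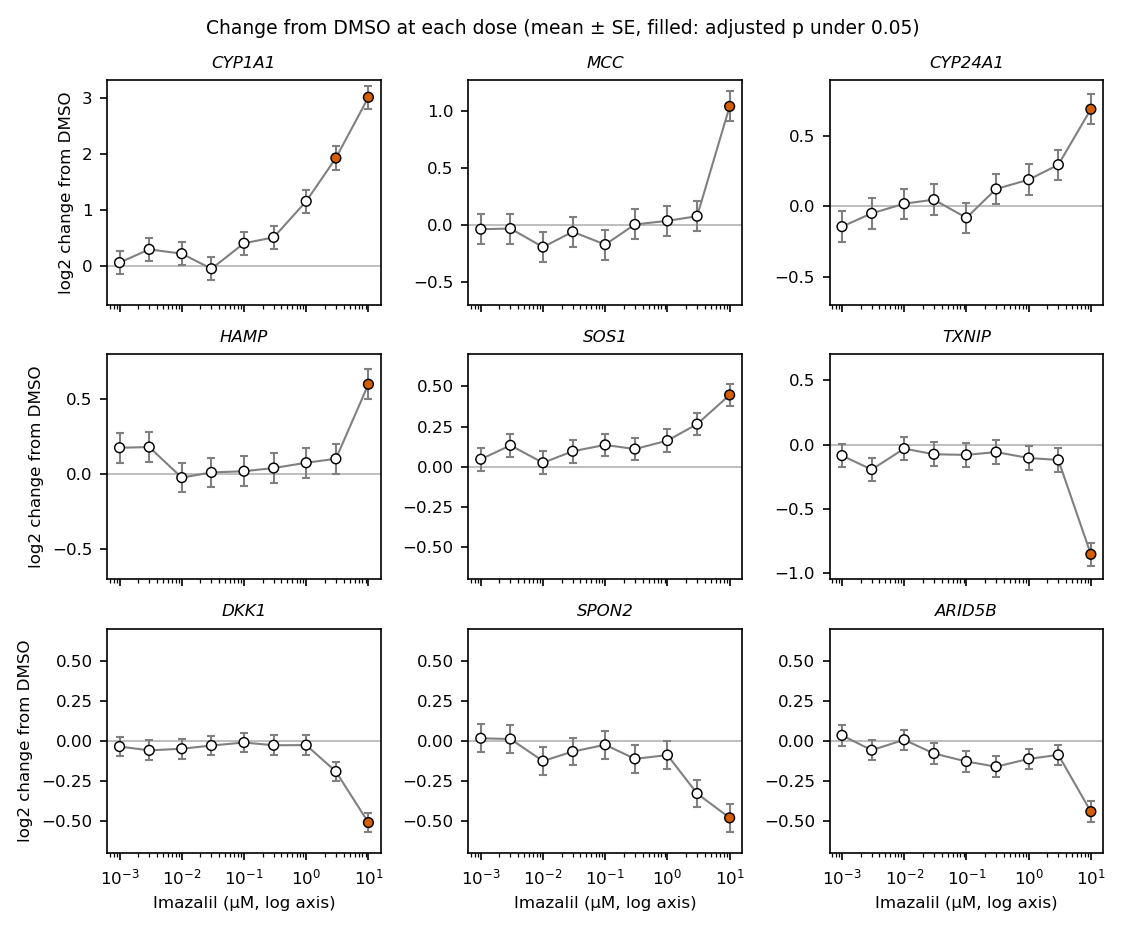
Change from DMSO of 9 of the called genes at each of the 9 imazalil doses (x axis, dose in µM on a log axis; y axis, log2 change with its SE, 3 arrays per dose; filled points, adjusted p under 0.05). CYP1A1 climbed from 0.1 µM on and was past the threshold at 3 and 10 µM, whereas MCC, HAMP, TXNIP and ARID5B stayed near 0 up to 3 µM.

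A reference that does not use the DMSO arrays was given by the 9 arrays at 0.001, 0.003 and 0.01 µM imazalil. Against them 45 genes differed at 10 µM (0.228%), 21 upward and 24 downward, and 20 with only the arrays compared in the fit. The 21 genes called against DMSO were all among them and in the same direction, although both comparisons used the same 10 µM arrays. CYP1A1 was 2.83 above the lowest doses (SE 0.17), MCC 1.13 (SE 0.11) and TXNIP -0.75 (SE 0.07).

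The 24 genes called only against the lowest doses had 11 that rose and 13 that fell. SLC51B rose by 0.80 (SE 0.13, adjusted p = 0.00264), from between 4.40 and 5.12 on the 9 arrays to between 5.49 and 5.83. GSTA1 rose by 0.50 (SE 0.11, adjusted p = 0.0449), and the mitochondrial carriers SLC25A30 and SLC25A33 rose by 0.36 and 0.25. IL6R, the interleukin 6 receptor, rose by 0.54 (SE 0.09, adjusted p = 0.00469), and CYB5A by 0.29. The tubulin TUBB2B (0.63), the RAS relative MRAS (0.56), the adaptor SKAP2 (0.49), CRACD (0.47) and the caveolar protein CAVIN2 (0.46) completed those that rose.

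The genes that fell included SERPINA7 (-0.32, SE 0.05, adjusted p = 0.00293), the lipoprotein component APOM (-0.40), the alcohol dehydrogenase ADH6 (-0.40), FMO5 (-0.38), the thiosulfate sulfurtransferase TST (-0.33), the sialyltransferase ST6GAL1 (-0.33) and the dicarboxylate carrier SLC13A3 (-0.31). IGFBP1, a secreted binder of insulin-like growth factors, had the largest of these falls (-0.62, SE 0.13, adjusted p = 0.0449), but its 9 low-dose arrays ran from 8.64 to 9.78, and its difference from DMSO was -0.37. The other genes that fell were EMP2, CCEPR, TMEM45B, PLPPR1 and UBL7-DT, by 0.32 to 0.52. In UBL7-DT and SLC25A30 the 10 µM arrays overlapped the low-dose arrays. All 24 genes had the same direction against DMSO, between 0.26 and 0.77 for those that rose and between -0.50 and -0.18 for those that fell.

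**Figure D4:**
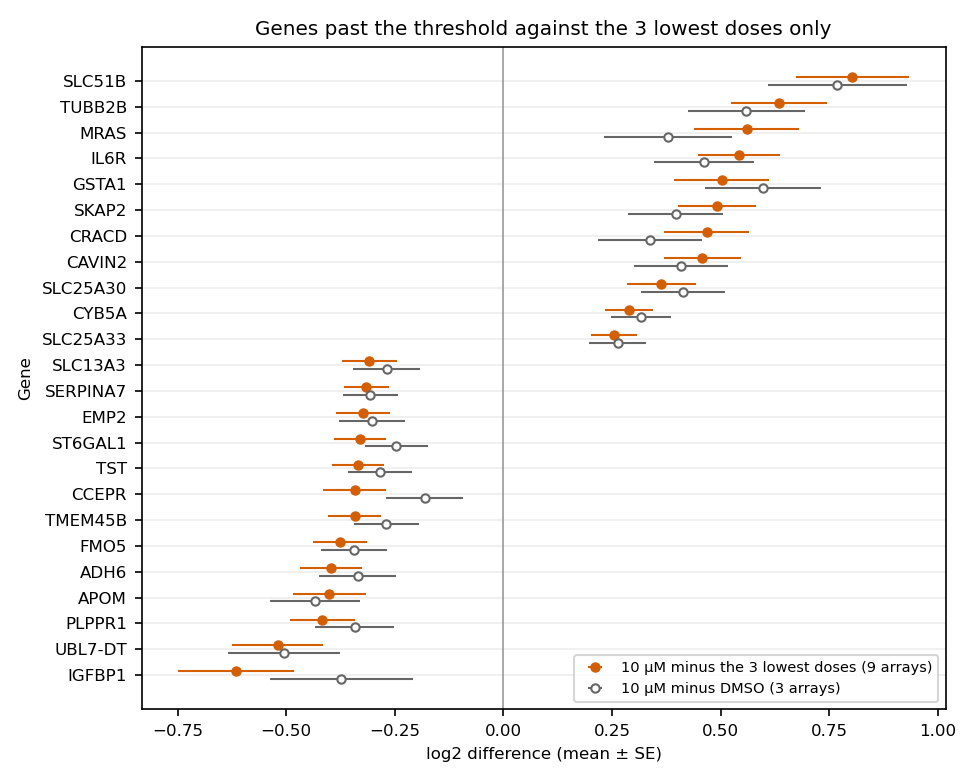
The 24 genes called at 10 µM imazalil against the 3 lowest doses but not against DMSO (x axis, log2 difference with its SE; orange, against the 9 low-dose arrays; open grey, against the 3 DMSO arrays). Both estimates lie on the same side of 0 for every gene, with wider errors against DMSO; SLC51B is the highest, at 0.80 and 0.77.

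Imazalil and fenbuconazole were compared at 10 µM on values centred on the DMSO columns of each set, so that the spread of the DMSO arrays cancels. A total of 8 genes differed (0.0405%), 4 higher and 4 lower with imazalil (2 and 4 after joint quantile normalization). With only the arrays of both 10 µM groups in the fit 2 genes differed, and without the arrays of replicate number 2 the count was 0. In that last fit 1197 of 19774 genes had an unadjusted p under 0.05, against 1956 in the main fit. The imidazole moved CYP1A1 and MCC further than the triazole did. Per array, CYP1A1 was 2.86, 2.94 and 3.24 above DMSO with imazalil and 1.30, 1.80 and 1.86 with fenbuconazole, a difference of 1.36 (95% interval 0.91 to 1.81, adjusted p = 0.00279). MCC was 0.92, 1.12 and 1.08 above DMSO with imazalil and 0.17, 0.13 and -0.06 with fenbuconazole, a difference of 0.96 (0.69 to 1.24, adjusted p = 0.000294).

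The other genes that differed between the azoles had smaller gaps. KCNJ10 was higher with imazalil by 0.46 (adjusted p = 0.0417) and the lysosomal sialic acid exporter SLC17A5 by 0.36 (adjusted p = 0.0417). ARID5B was lower by 0.36 (adjusted p = 0.0103) and SPON2 by 0.43 (adjusted p = 0.00991), with fenbuconazole changes of -0.08 and -0.05. NHEG1 was lower by 0.60 and TACC1 by 0.31 (adjusted p = 0.0379 each), and neither was called against DMSO with either compound. For the other 16 of the 21 genes a difference was not shown. TXNIP was at -0.85 with imazalil and -0.48 with fenbuconazole, a difference of -0.38 with an interval from -0.57 to -0.18 that does not pass over all genes (adjusted p = 0.216). DKK1 was at -0.51 and -0.31, a difference of -0.20 (-0.31 to -0.09, adjusted p = 0.243). Fenbuconazole alone had 3 called genes against DMSO (0.0152%), with CYP1A1 at 1.65 (SE 0.22, adjusted p = 0.000549).

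Against 2,4-D, 50 genes differed at 10 µM (0.253%), 23 higher and 27 lower with imazalil, a count that was 2 with only the arrays of both 10 µM groups in the fit. Among the 21 called genes 19 differed, and the exceptions were SULT2A1 (0.33, interval 0.13 to 0.53, adjusted p = 0.200) and SOS1 (0.27, interval 0.12 to 0.42, adjusted p = 0.143). The 21 genes had been chosen for their change on the same 10 µM imazalil and DMSO arrays. A high count was therefore favoured in advance and is no separate support for them. CYP1A1 was -0.04, 0.13 and 0.01 from DMSO on the 2,4-D arrays, and imazalil exceeded 2,4-D by 2.98 (interval 2.64 to 3.32). TXNIP differed by -0.75 and CYP24A1 by 0.73. Of the genes not called against DMSO, SLC51B differed by 1.15, being 0.77 with imazalil and -0.38 with 2,4-D, and the potassium channel KCNG3 by 0.70, FAM20A by 0.66, IL6R by 0.62 and IGKV1-5 by -0.60. With 2,4-D alone 0 of 19774 genes were called against DMSO in limma. An unadjusted p under 0.05 was met by 783 of them, fewer than the 1180 with 10 µM imazalil. Such counts did not track the calls, however, being 1137 at 0.1 µM imazalil, where 0 genes were called in limma.

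**Figure D5:**
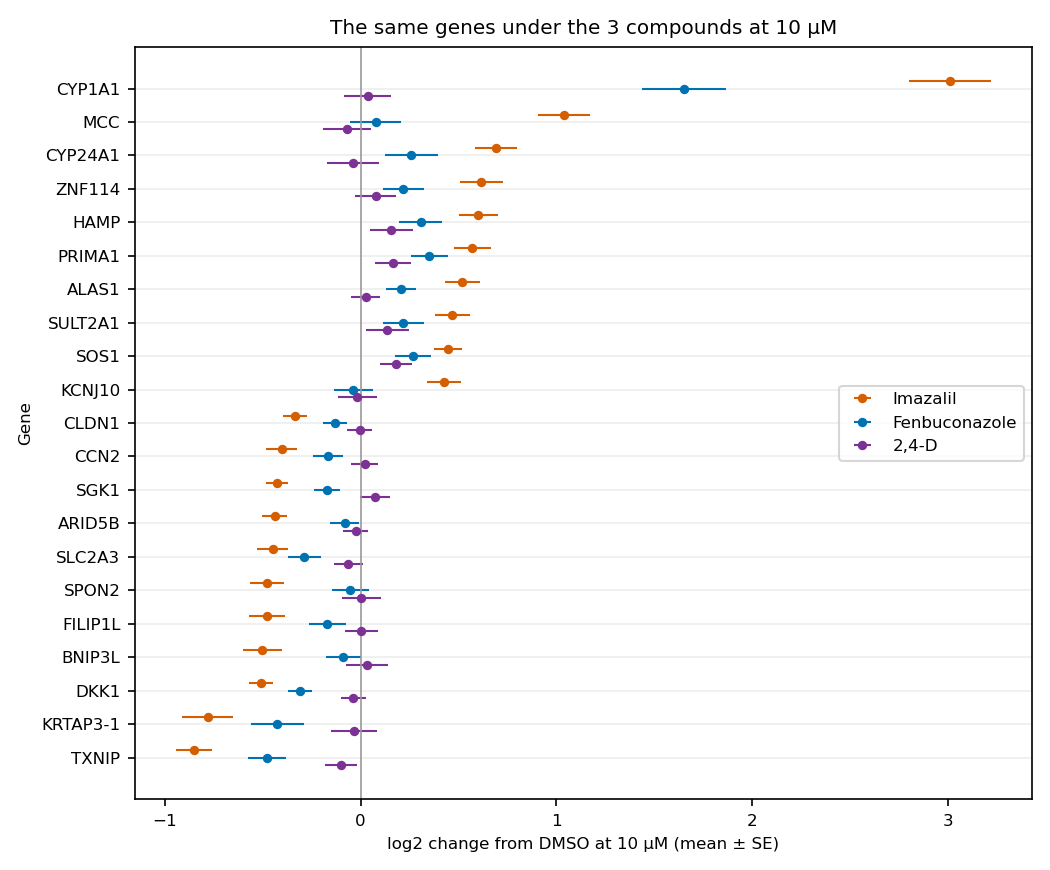
The 21 genes called at 10 µM imazalil under each compound at 10 µM (x axis, log2 change from DMSO with its SE; orange, imazalil; blue, fenbuconazole; violet, 2,4-D; 3 arrays per compound against copies of the same 3 DMSO arrays). Imazalil points chose the genes; CYP1A1 stood at 3.01, 1.65 and 0.04, and MCC at 1.04, 0.08 and -0.07.

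How many genes pass depends on the arrays that set the error. With the 6 arrays of the comparison alone in the fit, 2 genes passed (CYP1A1 and MCC), and without DMSO replicate 2 or imazalil replicate 3 the counts were 13 and 8. The genes that passed without any 1 of the 6 arrays were CYP1A1, MCC, PRIMA1, SOS1, SGK1, ARID5B, DKK1 and TXNIP, while KCNJ10 and BNIP3L lost their call without any 1 of them, with changes of 0.40 to 0.47 and -0.54 to -0.43.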

How the data were processed

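The authors hybridized RNA of HepG2 cells to Affymetrix HT HG-U133+ PM arrays and deposited log2 probe set intensities. Per the labels, RMA was applied within the set of each compound, and each set of 30 columns held 27 treated arrays and copies of the 3 common DMSO arrays. The processing notes also name Partek; versions and genome build are not given in the sources used here. RMA summarises and quantile normalizes probes, which removes global shifts and compresses changes at low signal.

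Of 54715 probe sets, 102 were controls, 40914 had 1 symbol, 864 several and 12835 none, and 40858 were matched by Entrez identifier. Each of 19774 genes was represented by its brightest single-symbol probe set, averaged across the 90 columns. limma 3.58.1 (R 4.3.3; lmFit, eBayes) was fitted to the 30 imazalil columns as group means, without a block. Contrasts were 10 µM and each lower dose minus DMSO, and 10 µM minus the mean of the doses 0.001, 0.003 and 0.01 µM. Compounds were compared at 10 µM on the 54 treated columns of 2 sets, each centred on the mean of its own DMSO columns. Tests were two-sided, with Benjamini-Hochberg adjustment over all genes and a threshold of 0.05; intervals are 95%. The number of arrays limits the precision.

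The members and the 30 gene lists were chosen with earlier results of these data known, so lists are described by counts and medians, without a test. Named were every gene past the threshold against DMSO or the lowest doses, the next 15, up to 4 further members of each list with the lowest p, pathway members around a called gene, up to 10 genes with the largest differences from each other compound, and CYP1A1, CYP1A2, CYP1B1, AHRR, TIPARP, NQO1, CYP3A4, CYP2B6, CYP51A1, HMGCS1, PDK4, HMOX1, CDKN1A, TXNIP and ARRDC4. The alternatives were a replicate block, only the groups compared, trended and robust eBayes, the dimmer genes left out, the mean of all probe sets of a gene, every probe set, array median centring, joint quantile normalization of the 84 arrays, the array's interquartile range as a covariate, and arrays left out.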

Additional observations from a re-analysis of the deposited data

Results flagged for a closer look

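The differences between compounds at 10 µM that passed a direct test are gathered here as log2 values, imazalil minus the other compound. No outlier test was made, because each group held 3 arrays.

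Against fenbuconazole, imazalil was higher for CYP1A1 (1.36), MCC (0.96), KCNJ10 (0.46) and SLC17A5 (0.36). It was lower for TACC1 (-0.31), ARID5B (-0.36), SPON2 (-0.43) and NHEG1 (-0.60).

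Against 2,4-D, 24 genes are given, namely the 10 largest differences and every other gene called against DMSO. Imazalil was higher for CYP1A1 (2.98), SLC51B (1.15), MCC (1.11), CYP24A1 (0.73), KCNG3 (0.70), FAM20A (0.66), IL6R (0.62), ZNF114 (0.54), ALAS1 (0.49), KCNJ10 (0.44), HAMP (0.44) and PRIMA1 (0.41). It was lower for CLDN1 (-0.33), SLC2A3 (-0.39), ARID5B (-0.41), CCN2 (-0.42), DKK1 (-0.47), SPON2 (-0.48), FILIP1L (-0.48), SGK1 (-0.50), BNIP3L (-0.53), IGKV1-5 (-0.60), KRTAP3-1 (-0.75) and TXNIP (-0.75).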

How the results depend on the processing

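The 21 genes called against DMSO kept their direction under every alternative in which they were tested. CYP1A1 alone was past the threshold in each of them, and over all genes and alternatives 238 of 377 pairs were past it. The count of 21 became 2 with only the groups compared in the fit and 36 with trended and robust eBayes, and lay between 16 and 28 under the other settings. Leaving out all arrays of 1 replicate number gave 2 to 4 genes, and leaving out 1 of the 6 arrays gave 8 to 20, with 13 without DMSO replicate 2 and 8 without imazalil replicate 3. Against the lowest doses the count of 45 became 20 with only the groups compared and 6 to 16 without 1 replicate number. Against fenbuconazole the 8 became 2 with only the groups compared, 5 with array median centring and 4 with the array spread as a covariate. Without 1 replicate number the count was 0 to 2 (by limma in each case). The count of 0, without replicate number 2, stood beside 1197 of 19774 genes at an unadjusted p under 0.05 in limma. Against 2,4-D the 50 became 2 with only the groups compared and 10 to 19 without 1 replicate number. MCC has no value among the brighter genes, since it is in the dimmer part left out there. The causes were not tested, beyond fewer samples leaving fewer degrees of freedom.

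With the replicate number as a block, 26 genes were called against DMSO, 61 against the lowest doses, 13 against fenbuconazole and 66 against 2,4-D. Deviations of same-numbered DMSO and 10 µM arrays correlated at -0.15, 0.06 and 0.15 over all genes, and the main fit had no block. Such correlations cannot show whether single genes vary with the replicate number, so a pairing of the arrays is not excluded. Signal over background limits genes with low values, for which no detection calls were at hand.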

Other observations

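In a separate fit of the 13699 probe sets listed with several gene symbols or with none, 1 passed the threshold in limma at 10 µM imazalil. It is listed with several symbols, so no gene is named from it. Its mean was 9.57 in DMSO and 9.08 with imazalil, a log2 change of -0.48 (SE 0.08, adjusted p = 0.0276).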
